A study of Homo sapiens with 8 samples.

Results

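Expression of 10 genes of the S100 family of calcium-binding proteins was followed across 8 RNA-Seq libraries of LN229 cells, an established human glioblastoma line. The genes, S100B, S100A1, S100A2, S100A4, S100A6, S100A10, S100A11, S100A13, S100A16 and S100P, were chosen from the 26364 genes of the deposited count table by a list of gene symbols, drawn up with values of these same comparisons in view. Their levels and fold changes are therefore given as a description, without p-values of their own, and the share of all genes called is printed beside each count. Of the 10 genes, 9 passed the filter on low counts and S100P did not. The table holds 11 further S100 genes, which are described for comparison.

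The study asked whether the location of survivin, the product of BIRC5, alters the response of glioblastoma cells to the alkylating drug temozolomide (TMZ). Every library came from LN229 cells stably transfected with a pcDNA3.1 plasmid for survivin fused to eGFP and kept under G418 selection. In Surv-GFP cells the nuclear export sequence (NES) of survivin is intact and the fusion protein is predominantly cytoplasmic, whereas in SurvNESmut-GFP cells leucine-to-alanine substitutions L96A and L98A inactivate the NES and the protein is predominantly nuclear. Either kind of cell stayed untreated or received TMZ in DMSO at 50 µM for 48 h, which gives 4 groups of 2 libraries, lettered a and b. Each kind of cell is 1 clone, D6 for Surv-GFP and L2 for SurvNESmut-GFP by the study's names, so that the NES mutation and any other difference between the clones cannot be told apart. The study speaks of independent biological replicates with technical duplicates for these data, but the labels do not say which of these the letters are, so the spread between them may be technical. Parental cells and cells with GFP alone were not analysed here.

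S100 proteins are small proteins of the EF-hand type, found in vertebrates only, that act mostly as dimers. On binding calcium they expose a hydrophobic surface and with it take hold of target proteins such as annexins and myosins, and several are also secreted and act on the receptor RAGE. S100B is abundant in astrocytes, Schwann cells and melanocytic cells and is widely used as a glial marker, and most of the other genes lie in a cluster on chromosome 1.

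The libraries held 15826923 to 18861603 counts on genes, the TMM scaling factors lay between 0.978 and 1.02, and log2 values of libraries of 1 group correlated at 0.994 or more across genes. BIRC5 counts, in which reads of the native gene and of the transgene are not separated, were 1152 and 1113 CPM (counts per 1000000, on TMM-scaled library sizes) in untreated Surv-GFP, 1938 and 2029 CPM in Surv-GFP with TMZ, 407 and 414 CPM in untreated SurvNESmut-GFP, and 262 and 253 CPM in SurvNESmut-GFP with TMZ. The amount of BIRC5 RNA thus differed between the clones together with the location of the protein. CDKN1A, the gene of the cell cycle inhibitor p21, rose with TMZ in both clones, from 86.6 and 77.3 to 908 and 975 CPM in Surv-GFP and from 117 and 119 to 429 and 492 CPM in SurvNESmut-GFP. Of 15 astrocyte or glioma markers 9 exceeded 1 CPM in every group, with VIM at 2348 to 3783 CPM, while GFAP stayed under 1 CPM and ALDH1L1 was at 0 in all 8 libraries. SOX10, a marker of oligodendrocytes or Schwann cells, was expressed in every library (531 to 1285 CPM).

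To compare genes with each other, levels were divided by exon length. S100A6 had the highest level of the family in all 4 groups, at 758 ± 5.2 CPM per kb (SD, n = 2) in untreated Surv-GFP, 1025 ± 14 with TMZ, 520 ± 5.0 in untreated SurvNESmut-GFP and 619 ± 20 with TMZ. S100B had rank 2 in untreated Surv-GFP at 537 ± 20 CPM per kb, where it made up 31.1% of the summed family level. In CPM not divided by length, S100B exceeded S100A6 in that group, at 798 and 756 against 732 and 740. Its rank was 4 in Surv-GFP with TMZ (9.77% of the sum), 5 in untreated SurvNESmut-GFP (2.97%) and 7 in SurvNESmut-GFP with TMZ (1.07%). S100A11 and S100A10 came next in most groups, with S100A11 at 163 to 287 CPM per kb and S100A10 at 115 to 137 CPM per kb as group means. S100A16 exceeded S100A10 in Surv-GFP with TMZ, at 184 ± 2.5 against 130 ± 3.7 CPM per kb, and lay below it in the other 3 groups. Neighbours in this order were separate in most groups. Exceptions were S100A16 and S100B, and S100A1 and S100A4, in Surv-GFP with TMZ, S100A4 and S100A13 in SurvNESmut-GFP with TMZ, and pairs at the lower end that involve S100P, S100A14 or S100A5.

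**Figure D1:**
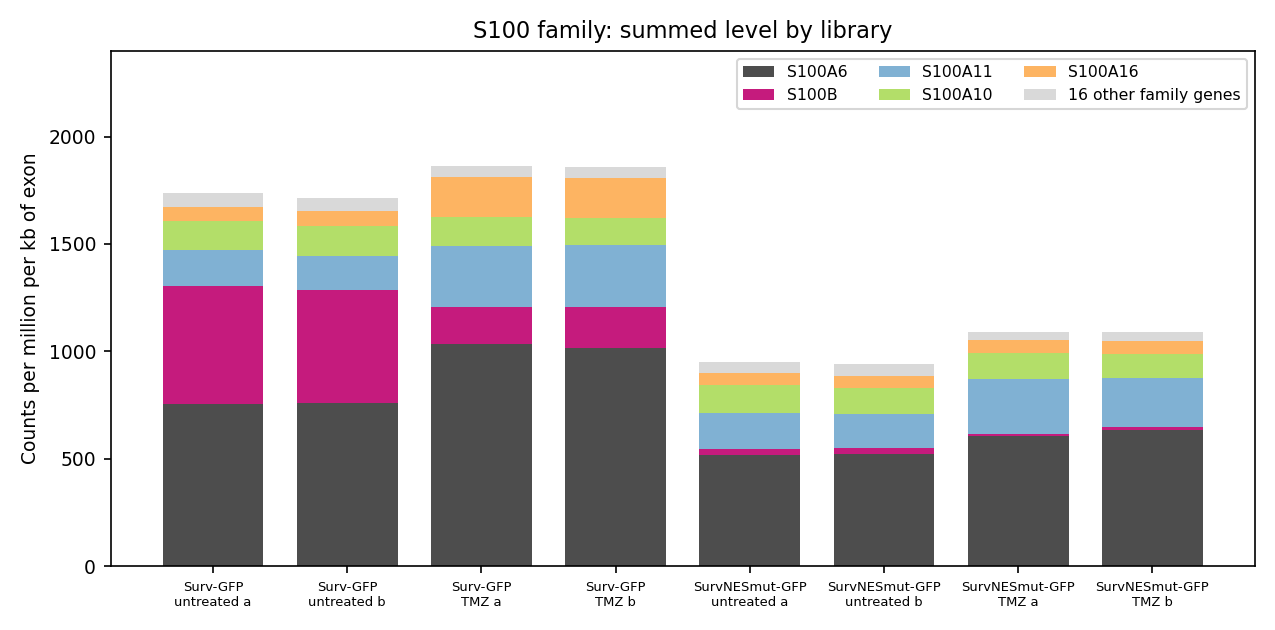
Summed level of the 21 S100 genes in each of the 8 libraries, in CPM per kb of exon. The segments of each bar are S100A6, S100B, S100A11, S100A10 and S100A16, with the other family genes pooled in the top segment. The sum lay at 1713 and 1738 in untreated Surv-GFP, 1859 and 1862 with TMZ, 939 and 949 in untreated SurvNESmut-GFP and 1088 and 1090 with TMZ, and the S100B segment is wide only in the Surv-GFP libraries.

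The summed family level per kb was lower in every SurvNESmut-GFP library than in every Surv-GFP library. The range was 939 to 1090 CPM per kb against 1713 to 1862 CPM per kb. Within each clone both TMZ libraries had a higher sum per kb than both untreated libraries. In Surv-GFP this was not so in CPM not divided by length. There the 10 chosen genes summed to 2097 and 2062 CPM without TMZ and to 2068 and 2074 CPM with TMZ. In SurvNESmut-GFP they summed to 1032 and 1023 CPM without TMZ and to 1116 and 1123 CPM with TMZ.

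In Surv-GFP, TMZ raised 4 of the 9 tested S100 genes (S100A2, S100A16, S100A11 and S100A6), beside 30.1% of all 14201 genes tested that were called higher, and lowered 3 (S100B, S100A1 and S100A13), beside 28.9% called lower. In SurvNESmut-GFP it raised 3 (S100A2, S100A11 and S100A6, beside 18.6% of all genes) and lowered the same 3 (beside 19.1%). A gene was called at a Benjamini-Hochberg adjusted p under 0.05 over all genes in edgeR's quasi-likelihood test. The change with TMZ differed between the clones for 5 of the 9 genes, S100A2, S100A16, S100A13, S100A11 and S100A6, each more negative in SurvNESmut-GFP, beside 20.2% of all genes called in that direction. None of the 9 was called in the other direction, beside 16.6% of all genes. The count of 5 was 3 without the b library of untreated Surv-GFP, the a library of Surv-GFP with TMZ or the a library of untreated SurvNESmut-GFP. S100A6 and S100A11 were lost in these fits and also without the b library of Surv-GFP with TMZ. S100B was called in the other direction in 4 of 15 alternative fits, that last one among them. In Surv-GFP cells the median log2 change of the 9 genes was -0.08, and in SurvNESmut-GFP cells it was 0.04, beside 0.00 over all genes in each clone. Since the list was drawn up with these comparisons known, nothing is read from these shares.

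**Figure D2:**
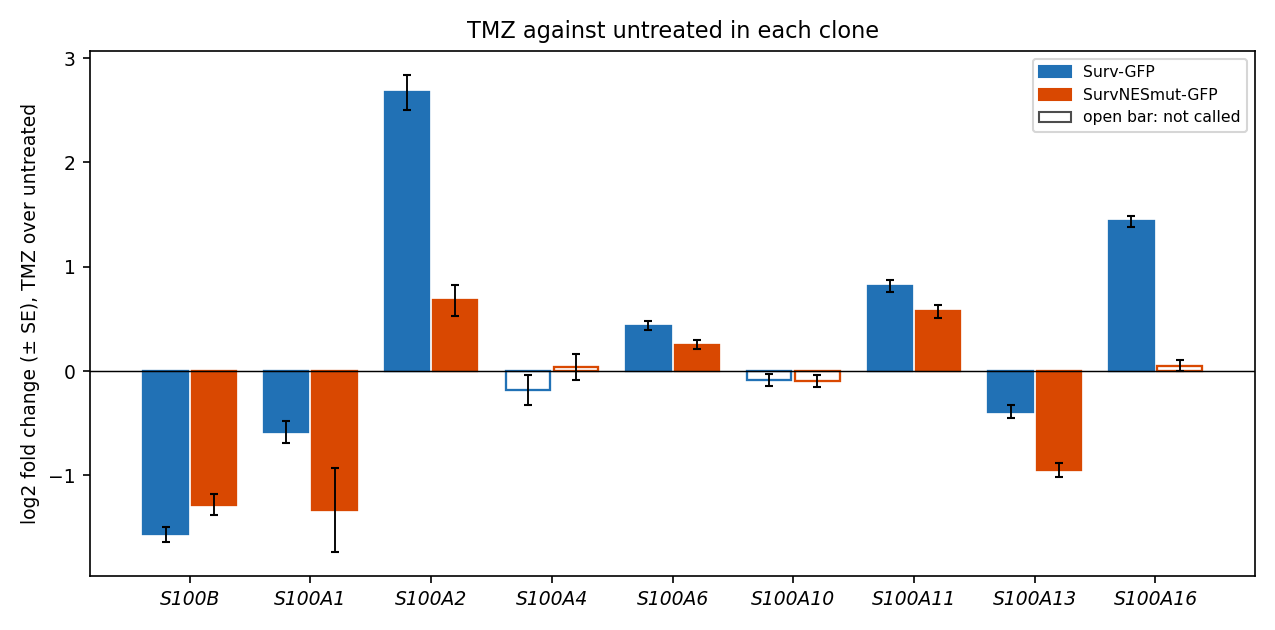
Log2 fold change of TMZ over untreated cells, with its standard error, for the 9 tested S100 genes in the Surv-GFP and SurvNESmut-GFP clones (2 libraries a group); open bars were not called. S100B, S100A1 and S100A13 lie below 0 in both clones, and S100A16 is far above 0 in Surv-GFP (1.43) but not in SurvNESmut-GFP (0.05).

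Most of the 9 genes were lower in SurvNESmut-GFP than in Surv-GFP. Without TMZ, 6 of the 9 genes were lower there (beside 29.4% of all genes) and 2, S100A2 and S100A4, were higher (beside 34.7%). With TMZ, 8 were lower (beside 34.7% of all genes) and S100A4 alone of the 9 was higher (beside 34.5%). The median log2 difference of the 9 genes was -0.23 without and -0.73 with TMZ, against 0.03 and 0.00 over all genes. The untreated and the TMZ comparisons of the clones, and the TMZ effects within them, share libraries with each other.

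**Figure D3:**
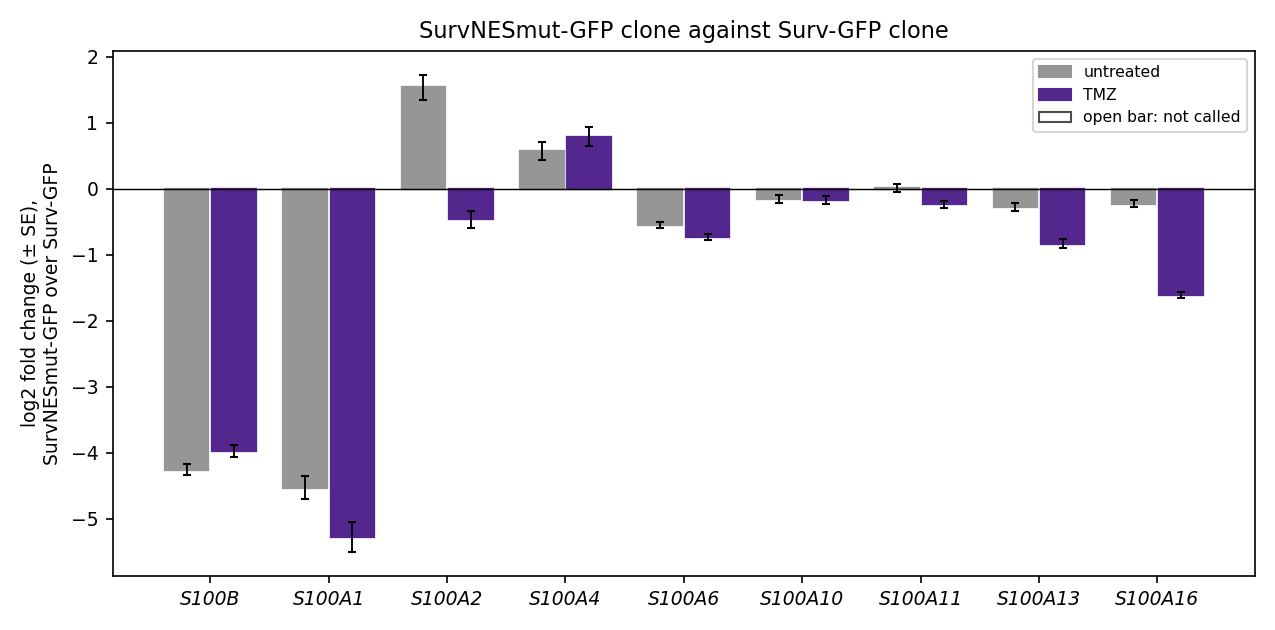
Log2 fold change of SurvNESmut-GFP over Surv-GFP, with its standard error, for the 9 tested S100 genes, untreated and with TMZ (2 libraries a group); the open bar, S100A11 without TMZ, was not called. S100B and S100A1 lie between -3.97 and -5.27, and S100A2 is above 0 without TMZ (1.53) and below 0 with TMZ (-0.46).

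S100B and S100A1, the glial member and a close relative of it best known from muscle and brain, differed most between the clones and fell with TMZ in both. S100B was measured at 798 and 756 CPM in untreated Surv-GFP, 248 and 279 CPM with TMZ, 41.2 and 40.1 CPM in untreated SurvNESmut-GFP, and 14.3 and 19.3 CPM with TMZ. The 4 groups did not overlap, and every SurvNESmut-GFP library lay below every Surv-GFP library. Relative to Surv-GFP, S100B in SurvNESmut-GFP was 19.1-fold lower without TMZ (log2 fold change -4.26 ± 0.09 SE) and 15.7-fold lower with TMZ (-3.97 ± 0.09). With TMZ it changed by -1.56 ± 0.07 on the log2 scale in Surv-GFP cells and by -1.28 ± 0.10 in the SurvNESmut-GFP clone. The difference between the TMZ changes, 0.28 ± 0.13, was not called, but it was called in 4 of 15 alternative fits, which were library-size scaling (0.34), no filter on low counts (0.30), and the fits without the b library of Surv-GFP with TMZ (0.40) or the a library of SurvNESmut-GFP with TMZ (0.49). S100B lies on chromosome 21, apart from the cluster.

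S100A1 was measured at 45.7 and 39.6 CPM in untreated Surv-GFP, 25.7 and 31.3 CPM with TMZ, 2.33 and 1.33 CPM in untreated SurvNESmut-GFP, and 0.585 and 0.882 CPM with TMZ. These last values rest on 43 and 24 counts without TMZ and 10 and 14 counts with TMZ, against 481 to 843 counts in Surv-GFP. As with S100B, the groups were separate and the clones lay far apart. The level in SurvNESmut-GFP was 23.1-fold lower without TMZ (-4.53 ± 0.17) and 38.7-fold lower with TMZ (-5.27 ± 0.23). The TMZ change was -0.58 ± 0.11 for Surv-GFP and -1.33 ± 0.40 for SurvNESmut-GFP. The call in SurvNESmut-GFP was lost without the a library of the untreated group (-0.87) or the a library of the TMZ group (-1.05).

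A marker of oligodendrocytes or Schwann cells moved with S100B. SOX10, a transcription factor of these lineages, lay at 1285 and 1243 CPM in untreated Surv-GFP, 1078 and 1172 CPM with TMZ, 740 and 720 CPM in untreated SurvNESmut-GFP, and 531 and 568 CPM with TMZ. The log2 difference between untreated SurvNESmut-GFP and untreated Surv-GFP was -0.79 ± 0.05 (adjusted p = 9.1e-10), and with TMZ it was -1.03 ± 0.05 (adjusted p = 3.1e-11). MBP, a myelin gene, went the other way, at 0 in all Surv-GFP libraries and at 6.22 to 7.10 CPM in SurvNESmut-GFP. Of 4 fibroblast markers, COL1A1, COL1A2 and DCN were higher and LUM was lower in untreated SurvNESmut-GFP (LUM -0.66 ± 0.09, adjusted p = 1.3e-05). Their sum, 54.9 to 61.2 CPM in untreated Surv-GFP and 577 to 581 CPM in untreated SurvNESmut-GFP, was mostly COL1A2 in the latter. Each library is bulk RNA of 1 LN229 clone, in which fewer expressing cells and less RNA per expressing cell cannot be told apart. The part of these markers in the S100B and S100A1 differences was not tested.

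S100A1 lies at one end of the chromosome 1 cluster, next to S100A13 on the opposite strand. In GENCODE 29 the exons of the pair share 235 bases, which is 7.76% of the exon bases of S100A1 and 10.6% of those of S100A13. On the opposite strand S100A1 also shares 320 exon bases (10.6%) with AL162258.2 and 34 (1.12%) with AL162258.1. No source used here says whether reads were counted by strand. The 250 bases before the RefSeq start of S100A1, at chr1:153628184-153628433 on the plus strand (GRCh38.p14), are shown as the start region of the gene with the widest clone difference. None of the motifs described for S100A2 below was found in it.
S100A1: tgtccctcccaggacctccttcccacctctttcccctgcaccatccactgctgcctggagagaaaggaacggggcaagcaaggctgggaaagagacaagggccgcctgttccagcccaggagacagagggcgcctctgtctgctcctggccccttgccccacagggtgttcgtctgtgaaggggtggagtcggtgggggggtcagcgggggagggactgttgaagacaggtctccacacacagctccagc

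S100A2 and S100A16 rose most with TMZ in Surv-GFP, and both changed less in SurvNESmut-GFP. S100A2, a gene expressed mainly in epithelia, was measured at 1.79 and 1.77 CPM in untreated Surv-GFP, 11.3 and 11.5 CPM with TMZ, 4.61 and 5.72 CPM in untreated SurvNESmut-GFP, and 7.95 and 8.57 CPM with TMZ. The counts behind these values were 32 to 211 a library. The order of the clones turned: SurvNESmut-GFP was above Surv-GFP without TMZ and below it with TMZ, with no overlap in either case. TMZ raised it 6.38-fold in Surv-GFP (log2 change 2.67 ± 0.17) but 1.60-fold in SurvNESmut-GFP (0.68 ± 0.14). The changes differed by -2.00 ± 0.23, a difference called in all 15 alternative fits. The clone difference was 1.53 ± 0.19 without TMZ and -0.46 ± 0.13 with TMZ, and the latter was not called by DESeq2 (-0.48).

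S100A16, a broadly expressed member of the family, was measured at 112 and 120 CPM in untreated Surv-GFP, 316 and 310 CPM with TMZ, 97.9 and 99.6 CPM in untreated SurvNESmut-GFP, and 100.2 and 105 CPM with TMZ. Only the Surv-GFP libraries with TMZ stood apart by a wide margin, and the other 6 libraries lay between 97.9 and 120 CPM. TMZ changed it by 1.43 ± 0.05 in Surv-GFP, a 2.70-fold rise, and by 0.05 ± 0.05 in SurvNESmut-GFP, which was not called. The difference between these changes was -1.38 ± 0.07 and was called in all 15 alternative fits, with values from -1.44 to -1.33. With TMZ the SurvNESmut-GFP level was 3.06-fold lower (-1.61 ± 0.05), and without TMZ the difference was -0.23 ± 0.05. CDKN1A also rose more in Surv-GFP (3.52 ± 0.07) than in SurvNESmut-GFP (1.96 ± 0.07), and the changes differed by -1.56 ± 0.10 (adjusted p = 5.1e-09).

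Of the epithelial markers, the keratins KRT8 and KRT18 rose with TMZ in both clones. The list of 4 summed to 156 to 157 CPM in untreated Surv-GFP, 306 to 312 with TMZ, 141 to 147 in untreated SurvNESmut-GFP and 205 to 236 with TMZ, nearly all of it from these keratins. KRT18 rose by 1.05 ± 0.06 in Surv-GFP cells (adjusted p = 2.2e-10) and by 0.62 ± 0.06 in SurvNESmut-GFP cells (adjusted p = 5.4e-07), where S100A16 was not called. KRT8 rose by 0.62 in both clones, and its level was lower in untreated SurvNESmut-GFP (-1.23 ± 0.11, adjusted p = 4.3e-08), where S100A2 was higher. EPCAM and CDH1, the defining markers, were at 0.252 CPM or below in every library. Whether the keratin changes have a part in the S100A2 and S100A16 changes was not tested.

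S100A2 and S100A16 are next to each other on chromosome 1 and are both read from the minus strand. The 250 bases before the first RefSeq start of S100A2, at chr1:153565845-153566094 on GRCh38.p14, are shown because this gene had the largest rise of the 9. Capitals mark the motif match, searched on both strands.
S100A2: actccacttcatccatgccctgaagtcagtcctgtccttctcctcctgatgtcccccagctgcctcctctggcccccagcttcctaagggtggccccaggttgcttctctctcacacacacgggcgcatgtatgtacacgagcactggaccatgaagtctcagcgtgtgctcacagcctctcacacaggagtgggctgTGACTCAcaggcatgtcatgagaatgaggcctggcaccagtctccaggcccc
The S100A2 window held 1 match to the AP-1 motif TGANTCA, ending 45 bases before the start. Of 35116 RefSeq promoter windows of the same length, 6.57% held the AP-1 motif. The other motifs searched were the GC box GGGCGG (42.6% of windows), the TATA box TATAAA (10.7%) and the cyclic AMP response element core TGACG (21.2%), none of which was in this window. S100A2 has a further RefSeq start, and its window held none of these motifs. A match describes letters in a window and does not show that a factor binds there.

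S100A6, S100A10 and S100A11 are partners of annexins: S100A10 binds annexin A2 without needing calcium, S100A11 binds annexin A1, and S100A6 binds CACYBP and annexins. S100A6 was measured at 732 and 740 CPM in untreated Surv-GFP, 1005 and 986 CPM with TMZ, 501 and 508 CPM in untreated SurvNESmut-GFP, and 587 and 614 CPM with TMZ. The 4 groups were separate, with both SurvNESmut-GFP groups below both Surv-GFP groups. It rose with TMZ by 0.44 ± 0.04 in Surv-GFP cells and by 0.25 ± 0.04 in SurvNESmut-GFP cells, and the clone difference was -0.54 ± 0.04 without and -0.73 ± 0.04 with TMZ. The difference between the TMZ changes, -0.18 ± 0.06, lost its call in 9 of 15 alternative fits. Among these were 7 of the 8 fits that left out 1 library (-0.22 to -0.15), all but the one without the b library of SurvNESmut-GFP with TMZ.

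S100A11 was measured at 114 and 108 CPM in untreated Surv-GFP, 195 and 196 CPM with TMZ, 115 and 108 CPM in untreated SurvNESmut-GFP, and 175 and 157 CPM with TMZ. Untreated libraries of the clones overlapped, and every TMZ library lay above every untreated one. TMZ raised it by 0.81 ± 0.06 in Surv-GFP cells and by 0.57 ± 0.06 in SurvNESmut-GFP cells. The difference between these changes, -0.24 ± 0.08, lost its call in 8 of 15 alternative fits. It kept the call without the a library of untreated Surv-GFP, the b library of untreated SurvNESmut-GFP or the a library of SurvNESmut-GFP with TMZ, and lost it without any 1 of the other 5 libraries (-0.33 to -0.17 over the 8 fits). Reads of S100A11 may be split with its processed pseudogenes, so its values are uncertain in that respect.

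S100A10 varied least. Its libraries read 207 and 217 CPM in untreated Surv-GFP, 204 and 196 CPM with TMZ, 197 and 184 CPM in untreated SurvNESmut-GFP, and 188 and 168 CPM with TMZ. The untreated Surv-GFP libraries were the highest, just above those of Surv-GFP with TMZ. The untreated SurvNESmut-GFP libraries overlapped both TMZ groups, which were separate from each other. TMZ changes of -0.08 ± 0.06 for Surv-GFP and -0.10 ± 0.06 for SurvNESmut-GFP were not called. The clone differences of -0.15 ± 0.06 without and -0.17 ± 0.06 with TMZ were called, but each lost its call in 2 of the 8 fits that left out 1 library. These were the fits without the b library of either untreated group, and without the a library of Surv-GFP or the b library of SurvNESmut-GFP with TMZ.

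S100A4, a metastasis-associated member that binds non-muscle myosin, was alone of the 9 genes in being called higher in SurvNESmut-GFP both without and with TMZ. It was measured at 10.5 and 9.22 CPM in untreated Surv-GFP, 8.56 and 8.78 CPM with TMZ, 13.99 and 15.2 CPM in untreated SurvNESmut-GFP, and 12.8 and 17.3 CPM with TMZ. All 4 SurvNESmut-GFP libraries lay above all 4 Surv-GFP libraries, and the TMZ libraries of SurvNESmut-GFP spanned the untreated ones. SurvNESmut-GFP was higher by 0.57 ± 0.13 without and by 0.79 ± 0.14 with TMZ. The TMZ changes, -0.18 ± 0.15 and 0.04 ± 0.13, were not called in either clone.

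S100A13, a copper-binding member that takes part in the export of FGF1 and IL1A from cells without a signal peptide, was measured at 74.6 and 70.8 CPM in untreated Surv-GFP, 55.8 and 55.3 CPM with TMZ, 58.7 and 61.3 CPM in untreated SurvNESmut-GFP, and 29.6 and 32.7 CPM with TMZ. Both clones were lower with TMZ, and the SurvNESmut-GFP libraries with TMZ were the lowest by a clear gap. For Surv-GFP the change was -0.39 ± 0.06, for SurvNESmut-GFP it was -0.95 ± 0.07, and the difference of -0.56 ± 0.09 was called in all 15 alternative fits. The clone difference was -0.28 ± 0.06 without and -0.84 ± 0.07 with TMZ. Besides S100A1, the annotated transcript AL162258.1 shares 536 exon bases with S100A13, which is 24.2% of its exon length, so reads there could be assigned to more than 1 gene.

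S100P, a member known from placenta and carcinomas, was near the limit of detection. Its libraries held 3 and 3 counts in untreated Surv-GFP, 0 and 5 with TMZ, 1 and 2 in untreated SurvNESmut-GFP, and 9 and 7 with TMZ. The summed count in SurvNESmut-GFP was 16 with TMZ against 3 without, a ratio of 5.89 after scaling, with an exact 95% interval of 1.69 to 31.6 that covers counting error only. In Surv-GFP the corresponding counts were 5 and 6, a ratio of 0.844 (0.204 to 3.32). With TMZ, SurvNESmut-GFP held 16 counts and Surv-GFP 5, a ratio of 3.51 (1.23 to 12.2).

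**Figure D4:**
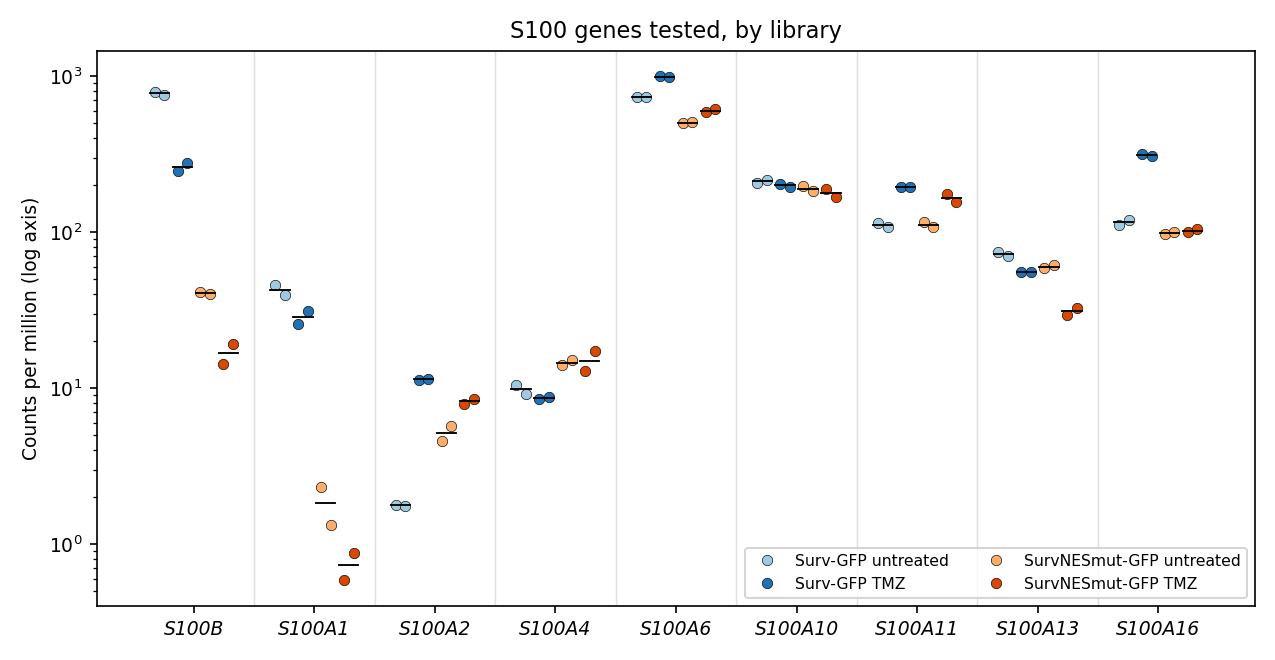
Level of the 9 tested S100 genes in each of the 8 libraries, in CPM on a log axis; points are libraries and short lines the means of 2. For S100B and S100A1 all SurvNESmut-GFP points lie below all Surv-GFP points, and the 2 Surv-GFP libraries with TMZ of S100A16, at 316 and 310 CPM, stand above the other 6.

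The other 11 S100 genes in the table were low or silent. S100A7, S100A7A, S100A7L2, S100A8, S100A9, S100A12 and S100G had 0 counts in all 8 libraries, which allows a level of up to 0.160 to 0.189 CPM a library (3 counts). S100A5 had 1 count in each SurvNESmut-GFP library with TMZ and none elsewhere, and S100A14 had 0 to 2 counts a library. S100A3 and S100Z passed the filter. S100A3, a cysteine-rich member known from hair, fell with TMZ in Surv-GFP by 0.70 on the log2 scale (SE 0.22, adjusted p = 0.011), from 2.93 and 2.93 to 1.93 and 1.66 CPM. Like S100A4, it was higher in SurvNESmut-GFP, by 0.49 ± 0.18 without TMZ (adjusted p = 0.027) and by 1.07 ± 0.21 with TMZ (adjusted p = 2.5e-04). S100Z was not called in any of the comparisons.

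**Figure D5:**
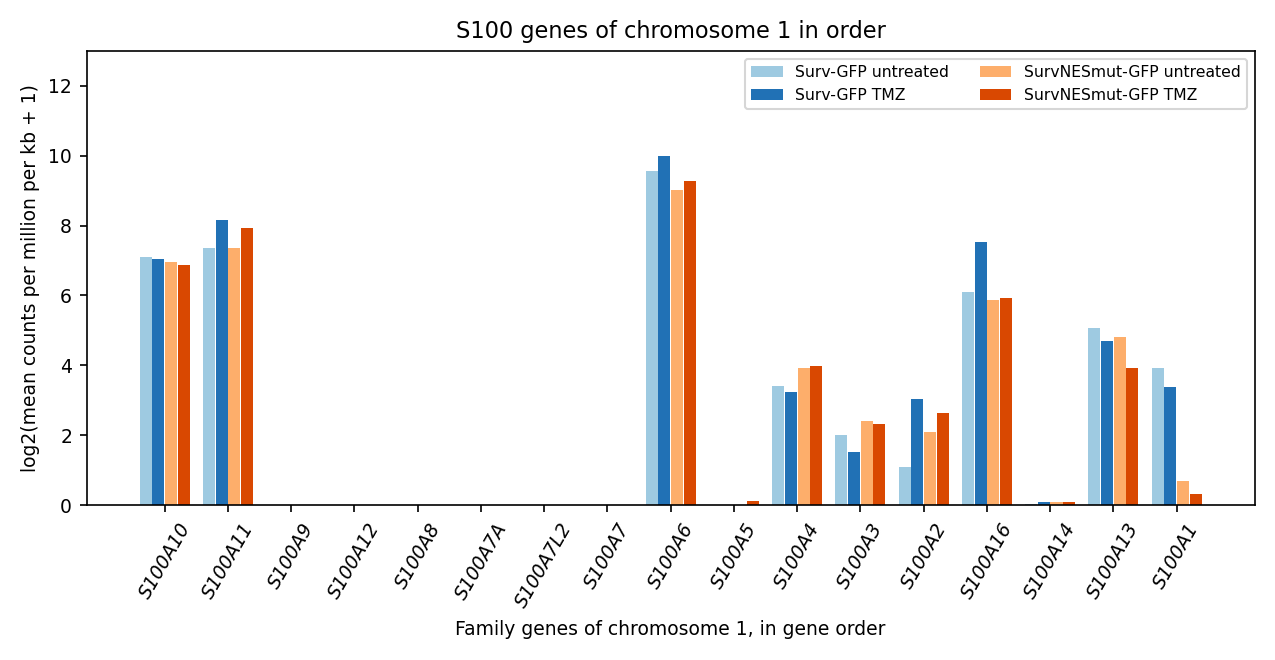
Mean level of the 17 S100 genes of chromosome 1 in each group, as log2(CPM per kb of exon + 1), in the order of the genes along the chromosome. The genes from S100A9 to S100A7 show no bar in any group, S100A5 and S100A14 show almost none, and S100A1 at one end has bars mainly in Surv-GFP.

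Of the 21 S100 genes, 17 lie on chromosome 1, 8 of them among the genes chosen. In RefSeq order, S100A10 and S100A11 come first, followed by 6 genes with 0 counts (S100A9, S100A12, S100A8, S100A7A, S100A7L2 and S100A7). Then come S100A6, S100A5, S100A4, S100A3, S100A2, S100A16, S100A14, S100A13 and S100A1. Neighbours did not always share a direction. S100A3 and S100A2 lie side by side, yet in Surv-GFP with TMZ S100A3 fell and S100A2 rose, and S100A16 and S100A13 went opposite ways on either side of the nearly silent S100A14. In the same way, S100A4 and S100A3 were higher in SurvNESmut-GFP with TMZ while S100A2 on one side, and S100A6 on the other beyond S100A5, were lower.

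Genes for proteins that S100 proteins bind or act with were described from a list of 30, of which 28 were tested. With TMZ, 8 rose and 12 fell in Surv-GFP (beside 30.1% and 28.9% of all genes), and 7 rose and 11 fell in SurvNESmut-GFP (beside 18.6% and 19.1%). IL1A, the cytokine exported with S100A13, showed the largest change. It lay at 1.25 and 1.55 CPM in untreated Surv-GFP, 41.6 and 33.5 CPM with TMZ, 4.12 and 4.28 CPM in untreated SurvNESmut-GFP, and 22.6 and 19.98 CPM with TMZ, and the groups did not overlap. It rose by 4.75 ± 0.17 in Surv-GFP (adjusted p = 6.9e-13) and by 2.34 ± 0.15 in SurvNESmut-GFP (adjusted p = 4.1e-09), which is a difference of -2.40 ± 0.27 (adjusted p = 3.7e-06). FGF1, the growth factor that S100A13 also helps to export, was under 1 CPM in every library, at 6 to 15 counts. It changed with TMZ by -1.02 ± 0.42 in Surv-GFP (adjusted p = 0.049) and by 1.02 ± 0.43 in SurvNESmut-GFP, which was not called. These FGF1 changes differed by 2.04 ± 0.61 (adjusted p = 0.015), in the direction opposite to IL1A. MDM2, which encodes a ubiquitin ligase, rose by 1.88 ± 0.07 in Surv-GFP (adjusted p = 1.1e-12) and by 0.92 ± 0.07 in SurvNESmut-GFP (adjusted p = 2.0e-08). SYT1, a synaptic calcium sensor found with S100A13, rose by 1.91 ± 0.05 in Surv-GFP (adjusted p = 3.4e-14) and by 0.58 ± 0.06 in SurvNESmut-GFP (adjusted p = 1.3e-06).

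Between untreated clones 14 of the 28 were higher and 5 lower in SurvNESmut-GFP (beside 34.7% and 29.4% of all genes), and with TMZ 15 were higher and 7 lower (beside 34.5% and 34.7%). Of the 9 S100 genes 2 were higher and 6 lower without TMZ, and 1 was higher and 8 lower with TMZ. ANXA2, the annexin bound by S100A10, lay at 650 and 711 CPM in untreated Surv-GFP and 1712 and 1769 CPM in untreated SurvNESmut-GFP, a difference of 1.35 ± 0.05 (adjusted p = 2.0e-12), where S100A10 itself differed by -0.15. MYH9, the non-muscle myosin heavy chain bound by S100A4, was higher in SurvNESmut-GFP by 1.53 ± 0.06 without TMZ (adjusted p = 2.0e-12) and by 1.89 ± 0.06 with TMZ (adjusted p = 2.3e-13), the same direction as S100A4. ALCAM, a cell adhesion molecule that is a receptor for S100B, was higher by 1.46 ± 0.05 without TMZ (adjusted p = 5.0e-13), and IQGAP1, a scaffold protein bound by S100B and S100P, by 1.13 ± 0.05 with TMZ (adjusted p = 5.6e-12). ANXA6 changed with TMZ by -0.91 ± 0.06 in Surv-GFP (adjusted p = 4.3e-09) and by -0.60 ± 0.06 in SurvNESmut-GFP (adjusted p = 7.4e-07). The difference between these changes was 0.31 ± 0.09 (adjusted p = 0.011). AHNAK, a giant scaffold held by the S100A10 and annexin A2 complex, was higher with TMZ in SurvNESmut-GFP than in Surv-GFP by 1.12 ± 0.09 (adjusted p = 1.8e-08).

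Other EF-hand genes and other annexins were read beside the S100 genes. Of 30 tested EF-hand genes outside the S100 family, 8 rose and 12 fell with TMZ in Surv-GFP (beside 30.1% and 28.9% of all genes), 7 rose and 13 fell in SurvNESmut-GFP (beside 18.6% and 19.1%), and 15 were higher and 5 lower in untreated SurvNESmut-GFP than in untreated Surv-GFP (beside 34.7% and 29.4%). NCS1, a neuronal calcium sensor, rose by 0.91 ± 0.06 in Surv-GFP (adjusted p = 7.6e-10) and by 0.82 ± 0.06 in SurvNESmut-GFP (adjusted p = 1.0e-08), while the calmodulin gene CALM3 fell by 0.88 and 0.60 on the log2 scale (adjusted p = 2.9e-10 and 9.2e-08). NUCB2, which encodes nucleobindin 2, rose by 0.79 ± 0.05 in Surv-GFP (adjusted p = 3.0e-09). In SurvNESmut-GFP it fell, with a log2 change of -0.24 ± 0.06 (adjusted p = 0.0057). The difference between these changes was -1.03 ± 0.08 (adjusted p = 8.9e-08). The calmodulin gene CALM2 was higher in untreated SurvNESmut-GFP by 1.14 ± 0.05 (adjusted p = 8.0e-12), and RCN3, an EF-hand protein of the endoplasmic reticulum, by 1.97 ± 0.08 (adjusted p = 3.4e-12). Of 7 further annexins 3 were tested, and ANXA4 rose in both clones, by 0.26 ± 0.06 (adjusted p = 0.0018) and 0.59 ± 0.06 (adjusted p = 1.0e-06).

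For the S100 genes whose group means spanned more than 1 on the log2 scale, the 3 tested genes with the most similar profile over the 8 libraries were looked up, as the smallest Euclidean distance between log2 CPM profiles centred on their own means. The nearest to S100B were AATK (distance 0.59), SLC22A17 (0.91) and KCNA2 (0.99). For S100A1 they were IGFBP2 (0.90), QPRT (0.999) and DNAH9 (1.19), and for S100A2 KCNN3 (0.46), CLCF1 (0.54) and TNFRSF12A (0.55). S100A16 was followed most closely by GOT1 (0.23), TGIF1 (0.27) and ITGB8 (0.30), and S100A13 by COL11A1 (0.20), LINC00473 (0.20) and PFKFB3 (0.34). With 4 groups of 2 libraries these distances mostly reflect the 4 group means, and nothing is said of shared control.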

How the data were processed

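Total RNA of the 8 LN229 samples was sequenced by the authors on an Illumina platform. The deposited table holds raw read counts per gene symbol and library, which the authors did not normalise; per the submitters' processing notes STAR 2.5.0b, Cufflinks 2.2.1 and edgeR were used, while no source used here names the counting program, the annotation or the genome build. Tables of the authors' own comparisons (log2 fold change, log CPM, F, p and FDR) were not used. Rows without a gene (no feature, 11.2 to 14.3% of reads, and ambiguous, 1.19 to 1.28%) were left out.

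All 14201 genes passing edgeR's filterByExpr were fitted in one model of 4 group means (edgeR 4.0.16, R 4.3.3, TMM, quasi-likelihood F test), with Benjamini-Hochberg adjustment over all of them and a threshold of 0.05. The common biological coefficient of variation was 4.09%. The 5 contrasts were TMZ in each clone, their difference, and the clones without and with TMZ. P-values measure the spread between lettered libraries only. Alternatives were DESeq2 1.42.0, other scalings and filters, the newer edgeR method, a replicate block, fits restricted to the 4 libraries of a contrast, and fits without 1 library. The scripts were tested on simulated data. Exon lengths come from GENCODE 29 and gene order from RefSeq. Promoter sequences come from RefSeq (GRCh38.p14), where 9 of the 10 genes matched.

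The genes and lists were chosen with earlier results of these data known. Named from each list were the called genes with the largest changes per contrast (up to 4, libraries not overlapping), BIRC5 and CDKN1A as checks, and for each S100 gene spanning over 1 on the log2 scale its 3 nearest profiles. Marker genes and S100Z were named beside results after their values were seen. Some listed genes and 1 motif are not reported here.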

Additional observations from a re-analysis of the deposited data

Results flagged for a closer look

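The change with TMZ differed between the SurvNESmut-GFP and Surv-GFP clones, by a test of the difference itself (the interaction term of edgeR's model), for 5 of the 9 tested S100 genes, all in the negative direction, beside 20.2% of all genes in that direction and 16.6% in the other. The genes were chosen with these comparisons in view, so the count is a description. The difference of the log2 changes, SurvNESmut-GFP minus Surv-GFP, was -2.00 for S100A2, -1.38 for S100A16, -0.56 for S100A13, -0.24 for S100A11 and -0.18 for S100A6. The call was lost in 8 of 15 alternative fits for S100A11 and in 9 of 15 for S100A6. For S100A2, S100A11 and S100A6 both clones rose and SurvNESmut-GFP rose less. S100A16 rose in Surv-GFP and was not called in SurvNESmut-GFP, and S100A13 fell in both clones, by more in SurvNESmut-GFP. BIRC5 (-1.48) and CDKN1A (-1.56) differed in the same direction, and what part they have was not tested. Groups of 2 libraries are too small for a test of outlying libraries.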

How the results depend on the processing

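Of 711 recomputed fold changes of the S100 genes, 659 kept their direction and their side of the threshold, 24 lost a call, 5 gained one and 23 changed sign, none of the last in a comparison that was called. The S100A10 difference of TMZ changes (-0.01) was 0.0029 with DESeq2 size factors, 0.042 with library size alone, 0.0041 without a filter, 0.032 with the filter of CPM over 1 in 2 libraries, and -0.0995 to 0.065 with 1 library left out. The S100A11 difference of untreated clones (0.01) was -0.021 with DESeq2 size factors, -0.051 with library size, -0.028 without a filter, -0.037 with the CPM filter, -0.020 in DESeq2, -0.028 in a fit of the 4 libraries compared, and -0.044 to 0.059 with 1 library left out. S100A4 ranged from -0.18 to 0.25 for TMZ in SurvNESmut-GFP and from -0.0022 to 0.43 for the difference of TMZ changes with 1 library left out. The count of 5 genes that differed in their TMZ change was 3 with the CPM filter. It was 3 to 5 with 1 library left out, and 3 without untreated Surv-GFP b, Surv-GFP TMZ a or untreated SurvNESmut-GFP a. S100A6 and S100A11 were the genes lost, and no fit that left out 1 library kept both. S100B, whose difference was positive, was newly called and counted without Surv-GFP TMZ b or SurvNESmut-GFP TMZ a. The other recomputed counts stayed within 1.5 times. Libraries of the same letter did not deviate together across groups (correlations of -0.07 to 0.08 over 6 pairs of groups), and with the replicate block, the paired fit on the letters, the 5 counts of called S100 genes were as without it (7, 6, 5, 8 and 9). Other scalings moved the median of all genes by at most 0.06. Depth limits S100A1 in SurvNESmut-GFP and S100P, and 2 libraries a group limit every comparison.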
